A study of Mus musculus with 6 samples.

Results

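Heat shock chaperone genes and the gene of their main activator, Hsf1, were followed mouse by mouse in quiescent muscle stem cells (qMuSCs). The 10 genes were listed by name, as HSP70, HSP90, HSP60 and HSP40 genes with their partners and Hsf1, out of 31053 genes in the counts. They are Hspa1a and Hspa1b (the inducible HSP70 pair), Hsp90aa1, Dnajb1 and Hsph1, grouped here as stress-induced, then Hspa8, Hsp90ab1, Hspd1 and Hspe1, grouped as constitutive, and Hsf1 itself. All 10 passed the minimum on expression and were among the 11633 genes tested.

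Chaperones bind unfolded or misfolded proteins and help them reach their native shape. In a stressed cell the transcription factor HSF1 is released from chaperones, forms trimers and binds heat shock elements, arrays of the short unit nGAAn in alternating orientation, which raises transcription of the inducible chaperone genes within minutes. HSF1 itself is mainly controlled at the protein level, so the level of its mRNA says little of its activity. In muscle stem cells, as in other tissues, heat shock and immediate early transcripts are also known to rise while tissue is digested and cells are sorted.

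RNA was measured from GFP-positive stem cells sorted from resting muscle of 3 control mice (WT, named c124, c129 and c130) and 3 mice bred to lose the thyroid hormone activating deiodinase D2, the product of Dio2, in muscle stem cells (cD2KO, named fl125, fl126 and fl128), with 1 library per mouse. All 6 mice were 3 to 4 months old, had received tamoxifen, carried the Pax7nGFP/+ reporter and had both Dio2 alleles floxed (Dio2Fl/Fl). Pax7-CreERT2/+, which gives a tamoxifen-dependent Cre recombinase in Pax7-expressing cells, was carried by the cD2KO mice alone, whereas the WT mice were Pax7+/+ and had no Cre. Presence of Cre and loss of Dio2 therefore cannot be told apart in these libraries.

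Total counts ranged from 2184073 to 3897787 per mouse, so that 3 counts stand for 0.770 to 1.37 per 1000000 total counts. Levels are given as CPM, counts scaled to a library of 1000000, with library sizes scaled by TMM factors. Dio2 had 21, 5 and 10 counts in WT and 15, 5 and 1 in cD2KO mice. These overlap, with the highest level (6.80 CPM) in the library labelled fl125, so that whole-gene counts do not show the loss of Dio2 in that mouse. Pax7, the defining marker, was present in every mouse (213 to 434 CPM in WT and 316 to 691 CPM in cD2KO). The libraries of c129 and fl125 lay at opposite ends of the first principal component, which held 45.1% of the variance. Summed immune marker genes were at 3824 to 6759 CPM in WT and 206 to 2235 CPM in cD2KO, with c129 highest and fl125 lowest, and all 13 of them were highest in c129. Summed mural cell markers were at 6002 to 10167 CPM in WT and 12026 to 17815 CPM in cD2KO, with c129 lowest. Summed Schwann cell markers were at 5251 to 8212 CPM in WT and 7452 to 8028 CPM in cD2KO, also with c129 lowest. In bulk samples of this kind, fewer cells of a type and less RNA per cell cannot be told apart.

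The sequences around the start sites were searched for exact letters of the HSF1 motif. RefSeq start sites on GRCm38.p6 with 250 bases before and 50 after them were at hand for Hspa1a, Hspa1b, Dnajb1, Hsph1, Hspd1 and Hspe1, and not used here for the other 4 genes. They were searched on both strands for 3 units (GAANNTTCNNGAA or its reverse complement TTCNNGAANNTTC) and for 2 units (GAANNTTC or TTCNNGAA, each its own reverse complement and each contained in a match of 3 units). Among 32851 such windows 0.603% held a match of 3 units, 7.86% held GAANNTTC and 8.52% held TTCNNGAA. The 250 bases before the start of Hspa1a (chr17:34972157-34972406, minus strand) and Hspa1b (chr17:34959239-34959488, minus strand) are shown because these 2 genes carried the differences described next. Capitals mark the 1 match of GAANNTTC in each, 104 bases before the start.
Hspa1a: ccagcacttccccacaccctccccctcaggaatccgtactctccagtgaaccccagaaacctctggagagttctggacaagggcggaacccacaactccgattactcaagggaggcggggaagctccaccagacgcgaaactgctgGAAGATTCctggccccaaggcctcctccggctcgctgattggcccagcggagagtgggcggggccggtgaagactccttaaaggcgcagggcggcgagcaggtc
Hspa1b: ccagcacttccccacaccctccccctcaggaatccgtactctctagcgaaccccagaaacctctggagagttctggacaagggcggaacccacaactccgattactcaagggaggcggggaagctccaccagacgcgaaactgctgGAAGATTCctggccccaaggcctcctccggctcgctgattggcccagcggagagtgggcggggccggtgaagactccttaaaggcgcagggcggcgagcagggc

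The paired stretches were identical at 247 of 250 bases (98.8%), including the motif, so the HSP70 pair shares nearly all of this sequence. Matches of 3 units stood in the windows of Hspe1 and Hsph1. In Hspe1 (chr1:55088053-55088082, plus strand) 2 overlapping matches covered 18 bases that end 72 bases before the start, and these bases lie inside a first exon annotated for Hspd1, which is read from the opposite strand. In Hsph1 (chr5:149636287-149636316, minus strand) the match began 36 bases after the RefSeq start. Capitals mark the matches of 3 units.
Hspe1: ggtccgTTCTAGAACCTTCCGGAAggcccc
Hsph1: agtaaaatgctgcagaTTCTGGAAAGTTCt

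The windows of Dnajb1 and Hspd1 held no match of these letters. Units that depart from these letters were not searched, so a window without a match may still hold a heat shock element. A match describes the letters only, and no binding was measured in these libraries.

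The inducible HSP70 genes had the largest differences between the group means of the 10 members, and both were highest in WT mouse c129. Hspa1a (ENSMUSG00000091971) is a single-exon gene (mm10, chromosome 17, minus strand, 34969190 to 34972156) that encodes the cytosolic HSP70 that stressed cells make. Hspa1a was at 966, 3149.8 and 1592 CPM in WT mice c124, c129 and c130 and at 827, 1457 and 1013 CPM in cD2KO mice fl125, fl126 and fl128. The groups overlapped, with c129 far above the other 5 mice and c124 below 2 of the 3 cD2KO mice. Group means of Hspa1a were 1903 ± 1125 CPM (WT) and 1099 ± 323 CPM (cD2KO, SD between 3 mice). The log2 fold change of Hspa1a was −0.79 (standard error 0.41), and the difference did not pass the test (unadjusted p = 0.0873, adjusted p = 0.503, edgeR quasi-likelihood test).

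Hspa1b (ENSMUSG00000090877), the second copy, is also a single exon on the minus strand of chromosome 17, from 34956436 to 34959238. Its levels were 752, 2399 and 1351 CPM in the WT mice and 576, 972 and 578 CPM in the cD2KO mice, in the same order of mice as above. Only fl126 reached into the range of the WT mice, where it lay above c124. Hspa1b was 2.12-fold lower in cD2KO (log2 fold change −1.08, standard error 0.40, unadjusted p = 0.0257, adjusted p = 0.354, edgeR), with means of 1501 ± 834 CPM (WT) and 709 ± 228 CPM (cD2KO, SD between 3 mice). In edgeR's test it alone of the 10 members had an unadjusted p under 0.05, the line the study drew for its volcano plot. The call was lost without WT mouse c129 (−0.55, unadjusted p = 0.101), without fl125 (−0.91) and without fl128 (−0.95), and with c129 and fl125 both left out the log2 fold change was −0.41, where Hspa1a was at −0.02 and Dnajb1 at −0.03. Hspa1a passed that line without c124 (−1.11) or without fl126 (−1.05), and was at −0.19 without c129.

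The coding sequences of Hspa1a and Hspa1b were 99.4% identical, and 84.7% of the 50-base stretches of the Hspa1a coding sequence also occurred in another gene, mostly Hspa1b, which makes the split of reads between the pair uncertain. Their 3' UTRs shared no such stretch. Where along the transcript the reads lie is not given in the sources used here. Summed over both genes, the levels were 1718, 5550 and 2943 CPM in WT and 1403, 2429 and 1591 CPM in cD2KO mice, with a log2 fold change of −0.91 (unadjusted p = 0.050, just above the line before rounding, adjusted p = 0.417, edgeR). Gm20481, which overlaps Hspa1a on the opposite strand, had 0 counts in all 6 mice.

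Dnajb1 and Hsph1 encode partners of HSP70 that are induced with it. Dnajb1 (ENSMUSG00000005483, chromosome 8, plus strand, 83608193 to 83612653, 4 exon blocks), an HSP40 that loads clients onto HSP70, was at 144, 353 and 189.7 CPM in WT and 129.3, 179.9 and 139.9 CPM in cD2KO mice. The order of the mice matched that of Hspa1a within each group, and the groups overlapped. The log2 fold change of Dnajb1 was −0.61 (standard error 0.30, unadjusted p = 0.0607, adjusted p = 0.447, edgeR), and it became −0.13 without c129 and −0.86 without c124, where it passed the line. Hsph1 (ENSMUSG00000029657, chromosome 5, minus strand, 149614287 to 149636376, 19 exon blocks) encodes HSP110, a nucleotide exchange factor of HSP70. It was at 43.3, 141 and 71.7 CPM in WT and 61.0, 79.4 and 80.5 CPM in cD2KO mice. Here c129 alone set the direction, because the other 2 WT mice were at or below most of the cD2KO mice. The log2 fold change of Hsph1 was −0.20 (standard error 0.37, unadjusted p = 0.593, adjusted p = 0.889, edgeR), and 0.39 without c129.

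Hsp90aa1 is the inducible cytosolic HSP90 gene, whose product matures kinases and steroid receptors and holds HSF1 inactive (ENSMUSG00000021270, chromosome 12, minus strand, 110690605 to 110702728, 11 exon blocks). Its levels were 652, 888 and 875 CPM in WT and 520.1, 914 and 819 CPM in cD2KO mice. It did not share the peak of c129, which lay only 0.23 on the log2 scale above the mean of the other WT mice, against 1.34 for Hspa1a, 1.25 for Hspa1b, 1.33 for Hsph1 and 1.09 for Dnajb1. The log2 fold change of Hsp90aa1 was −0.10 (standard error 0.24, adjusted p = 0.921, edgeR). Of the 50-base stretches of its coding sequence 85.4% also occurred in other genes such as Gm12346, so its counts are uncertain. For Hsp90ab1 that share was 5.2%.

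**Figure D1:**
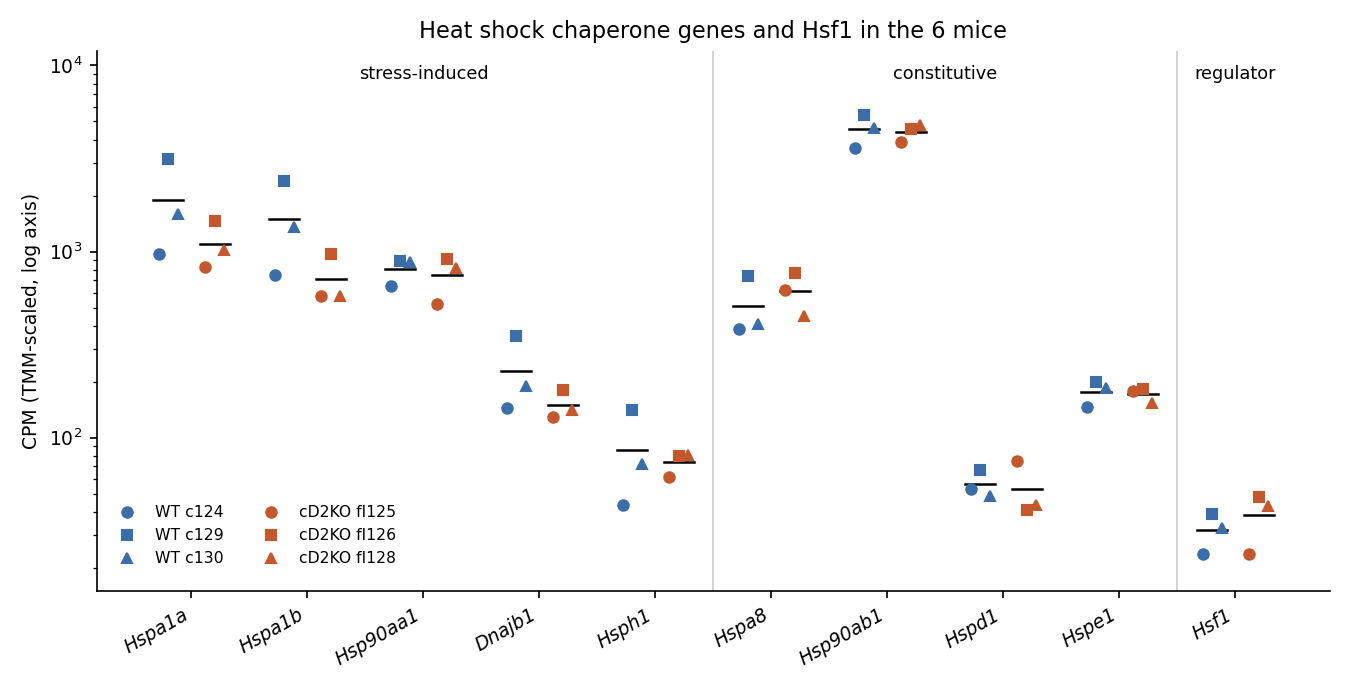
CPM of the 10 genes (log axis) in the 6 mice, with WT in blue, cD2KO in red, a symbol for each mouse of a group and a black line at the group mean (n = 3 mice). Hspa1a and Hspa1b reach 3149.8 and 2399 CPM in WT mouse c129, while Hsp90ab1 lies between 3621 and 5394 CPM in all mice.

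Of the constitutive members, Hsp90ab1 and Hspe1 were the flattest. Hsp90ab1 (ENSMUSG00000023944, chromosome 17, minus strand, 45567775 to 45573271, 9 exon blocks), the HSP90 gene that is on in unstressed cells, was the most abundant member at 3621, 5394 and 4599 CPM in WT and 3889, 4554 and 4775 CPM in cD2KO mice. Group means were 4538 ± 888 and 4406 ± 461 CPM (SD, n = 3 each), and the log2 fold change was −0.04 (standard error 0.22, adjusted p = 0.964, edgeR). Hspa8 (ENSMUSG00000015656, chromosome 9, plus strand, 40800984 to 40810087, 3 exon blocks) encodes HSC70, the housekeeping HSP70 of folding, clathrin uncoating and chaperone-mediated autophagy. It was at 384, 737 and 409 CPM in WT and 622, 767 and 452 CPM in cD2KO mice, so that its direction was opposite to that of the inducible pair. The log2 fold change of Hspa8 was 0.27 (standard error 0.27, unadjusted p = 0.350, adjusted p = 0.766, edgeR) and did not pass the line, although without c129 it was 0.65 (unadjusted p = 0.0227). Of the coding sequence of Hspa8 90.7% was shared with annotated pseudogenes such as Gm15459, and small nucleolar RNA genes lie within its transcribed region, so its counts are uncertain.

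Hspd1 and Hspe1 encode the mitochondrial chaperonin HSP60 and its lid HSP10, and lie head to head on chromosome 1 with overlapping first exons. Hspd1 (ENSMUSG00000025980, minus strand, 55077835 to 55088243, 12 exon blocks) was at 53.0, 67.2 and 48.7 CPM in WT and 74.7, 40.9 and 43.6 CPM in cD2KO mice. Hspe1 (ENSMUSG00000073676, plus strand, 55088132 to 55091307, 4 exon blocks) was at 145, 199 and 185 CPM in WT and 178, 182 and 153 CPM in cD2KO mice. The pair did not move together across the cD2KO mice, since fl125 was the highest for Hspd1 and not for Hspe1. Log2 fold changes were −0.09 for Hspd1 (standard error 0.26) and −0.05 for Hspe1 (standard error 0.20), with adjusted p of 0.936 and 0.960 in edgeR's test. Both share much of their coding sequence with pseudogenes (63.5% and 74.6% of 50-base stretches), and reads from the overlap cannot be assigned to a strand here.

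Hsf1 (ENSMUSG00000022556, chromosome 15, plus strand, 76477422 to 76501913, 8 exon blocks), the transcription factor of the response, had the lowest level of the members. It was at 23.7, 38.6 and 32.7 CPM in WT and 23.7, 48.2 and 43.0 CPM in cD2KO mice, on 52 to 140 counts per mouse. The groups overlapped and the 2 lowest mice, c124 and fl125, came from different groups. The log2 fold change of Hsf1 was 0.29 (standard error 0.31, unadjusted p = 0.365, adjusted p = 0.776, edgeR), of the opposite sign to all 5 stress-induced members.

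Divided by exon length, the order of the levels was Hsp90ab1 (1491 CPM per kb), Hspa1a (506), Hspa1b (394), Hsp90aa1 (198), Hspa8 (131), Hspe1 (118), Dnajb1 (59.1), Hspd1 (20.7), Hsph1 (11.0) and Hsf1 (4.93 CPM per kb), each as the mean over the 6 mice. Hsp90ab1 stood above every other member in each mouse, since its lowest mouse was at 1207 CPM per kb and the highest mouse of Hspa1a at 1062. Hspa1a, at 279 to 1062 CPM per kb, and Hspa1b, at 205 to 856, overlapped across mice, as did Hsp90aa1 at 132 to 232 and Hspa8 at 89.4 to 178 CPM per kb. If reads came only from transcript ends, division by length would not apply, and the sources used here do not say. The inducible HSP70 genes were at the 99.5 and 99.3 percentile of mean CPM among the tested genes. Together the 10 members took 0.676% to 1.38% of all counts of a mouse, most in c129.

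Across the 10 members, 1 passed the line of an unadjusted p under 0.05 on the lower side and 0 on the higher side, and 0 passed it by adjusted p (edgeR), against 6.62% lower, 5.34% higher and 0.0086% by adjusted p of all genes tested. DESeq2's Wald test called 2 members lower, limma voom 0. Over all genes these shares stand for 770 lower and 621 higher genes, a split that became 953 and 439 when libraries were scaled to total counts, 399 and 499 without c129, 874 and 933 without fl125, and 751 and 974 without both. The single gene called by adjusted p became 276 with DESeq2, 293 without fl125, 316 without c129 and fl125 and 510 without the minimum on expression. Of the members 8 had a log2 fold change under 0, all 5 of the stress-induced (median −0.61) and 3 of the 4 constitutive members (median −0.04), where 51.9% of all genes tested lay under 0 with a median of −0.02. In 0 of the 10 members did the groups not overlap, against 18.1% of the genes tested (8.05% higher and 10% lower in cD2KO). Leaving out single mice gave 0 to 3 members lower and 0 to 1 higher. Without c129 the count was 0 lower and 1 higher (Hspa8), without c124 it was 3 lower, and with c129 and fl125 both left out it was 0 lower and 3 higher (Hsph1, Hspa8 and Hsf1, at 0.52, 0.65 and 0.73), and the balance over all genes moved the same way in these fits (805 lower and 595 higher without c124, the others as given above).

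**Figure D2:**
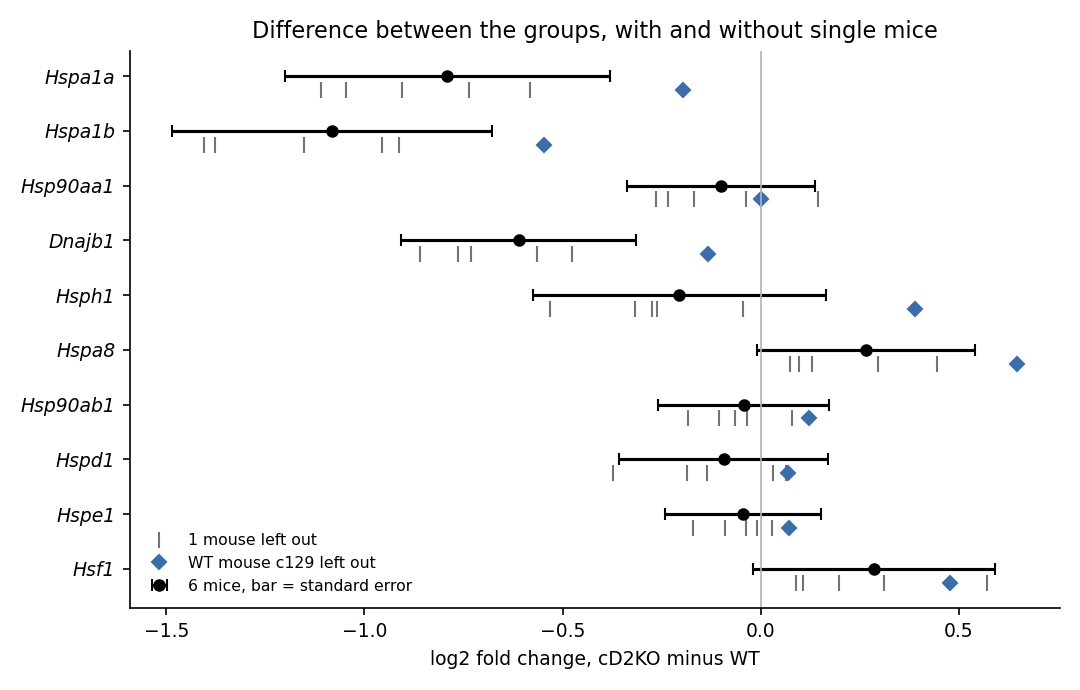
Log2 fold change of each member, cD2KO minus WT, from edgeR with all 6 mice (black points, bars are the standard error), and with 1 mouse left out (grey ticks, with WT mouse c129 left out as a blue diamond). Leaving out c129 moves Hspa1a from −0.79 to −0.19 and Hspa8 from 0.27 to 0.65.

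The spread between WT mice was widest for 4 of the 5 stress-induced members, and c129 was the high mouse in each. WT mouse c129 was the highest WT mouse for all 10 members, where it was so for 37.8% of the genes tested, and the highest of all 6 mice for 6 members, against 22.8% of the genes tested. WT mouse c124 was the lowest WT mouse for 9 members, Hspd1 being the exception. The share of all genes tested with c124 lowest in WT was not computed, so that count describes the members only. Within WT the highest mouse exceeded the lowest 3.26-fold for Hspa1a, 3.19-fold for Hspa1b, 3.27-fold for Hsph1 and 2.45-fold for Dnajb1, but 1.36-fold for Hsp90aa1, 1.49-fold for Hsp90ab1 and 1.37-fold for Hspe1. Hspa8 and Hsf1 lay between, at 1.92-fold and 1.63-fold, and Hspd1 was at 1.38-fold. Within cD2KO the stress-induced members did not stand out, at 1.76-fold for Hspa1a, 1.69-fold for Hspa1b, 1.76-fold for Hsp90aa1, 1.39-fold for Dnajb1 and 1.32-fold for Hsph1. There Hsf1 (2.03-fold) and Hspd1 (1.82-fold) had the widest ranges of the members.

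The pooled SD of log2 CPM within groups was 0.67 for Hspa1a, 0.67 for Hspa1b, 0.62 for Hsph1 and 0.50 for Dnajb1. Among genes within 1 log2 unit of their level these were at the 95.7, 95.1, 96.4 and 93.6 percentile. Hspa8 followed at the 88.4 percentile. Hsp90aa1, although counted as stress-induced, was at the 76.6 percentile, below Hsf1 at 78.3. Hspd1, Hsp90ab1 and Hspe1 were at the 70.7, 36.0 and 31.7 percentile, which makes the HSP10 and constitutive HSP90 genes ordinary in their spread. These percentiles are a description over 3 mice per group.

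**Figure D3:**
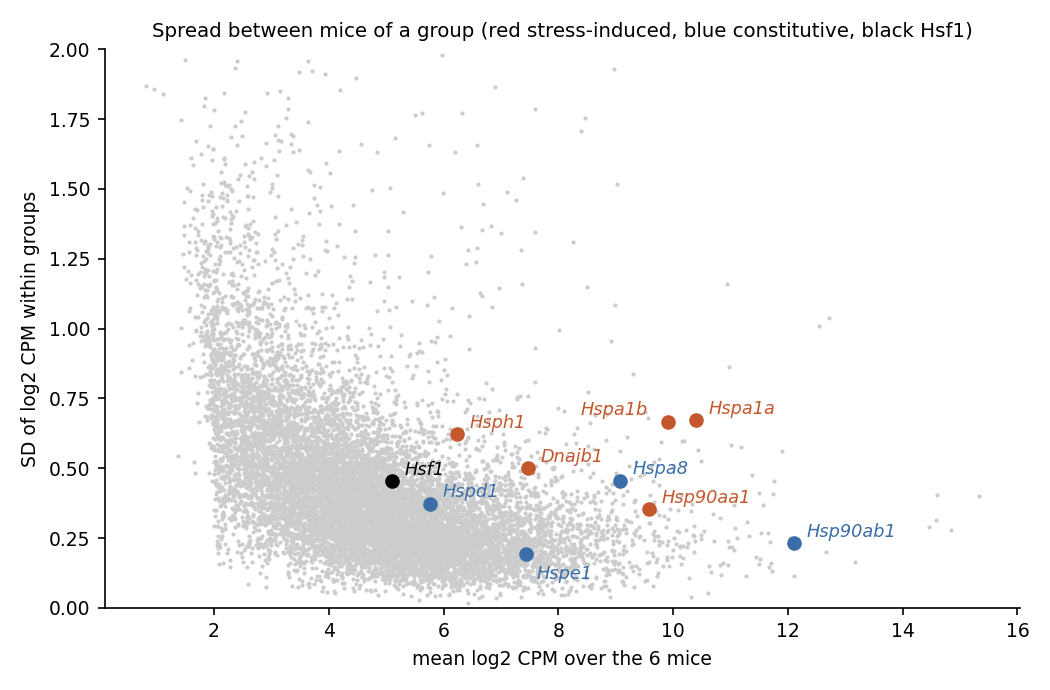
Pooled SD of log2 CPM within groups (y axis, shown up to 2) against mean log2 CPM over the 6 mice (x axis) for the genes tested in grey, with stress-induced members in red, constitutive members in blue and Hsf1 in black. Hspa1a, Hspa1b, Hsph1 and Dnajb1 lie at the upper edge of genes of their level, and Hspe1 and Hsp90ab1 lie within the bulk; 22 genes are beyond the axis.

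Genes with a profile like that of Hspa1a over the 6 mice were looked up as the smallest root mean square difference of log2 CPM after each gene was centred on its own mean. The 5 nearest outside the members were Pir (0.098), Egr1 (0.10), Cep68 (0.13), Galnt15 (0.15) and Qpctl (0.16). Of these Egr1 is an immediate early transcription factor with 696, 2016 and 1065 CPM in WT and 587, 891 and 607 CPM in cD2KO mice. The other 4 were below 24 CPM in every mouse, where counting error is larger. Among the members Dnajb1 was the 8th nearest gene (0.17) and Hspa1b the 10th (0.18), while Hsph1 ranked 156th, Hsp90aa1 815th and Hspa8 2183rd of the genes tested. The likeness is measured over 6 points and carries no test.

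**Figure D4:**
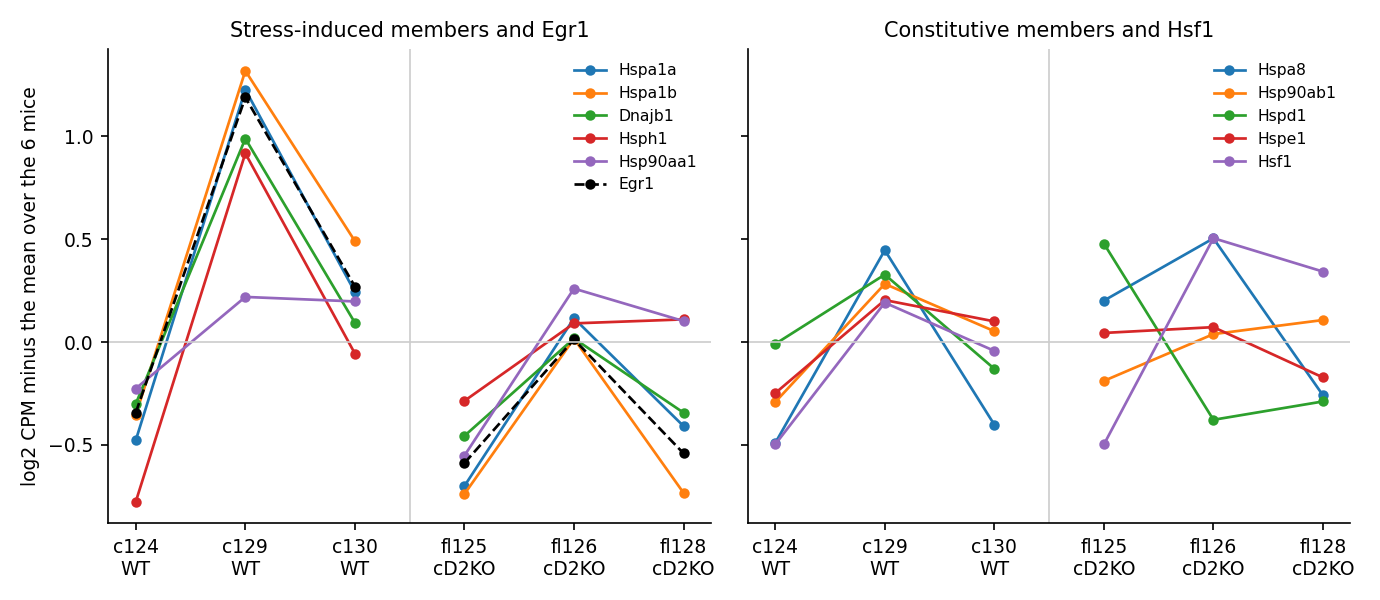
Log2 CPM minus the gene's mean over the 6 mice, with stress-induced members and Egr1 (dashed) on the left and constitutive members and Hsf1 on the right, the mice on the x axis and lines joining the mice of a group only to guide the eye. Hspa1a, Hspa1b, Dnajb1, Hsph1 and Egr1 share a peak in c129, which Hsp90aa1 lacks.

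Because Egr1 is also on a list of 24 immediate early genes that respond to tissue dissociation, that list was read beside the chaperones. Of its 23 tested genes 12 passed the line as lower and 0 as higher, against 6.62% and 5.34% of all genes tested. The median log2 fold change of the list was −0.78, and 20 of the 23 were highest in c129. Their summed level was 4912, 11353 and 6842 CPM in WT and 4505, 5684 and 5016 CPM in cD2KO mice, the same order of mice within each group as for Hspa1a and Dnajb1. Egr1 (−0.86) and Jun (−0.73) were lower at unadjusted p of 0.0346 and 0.0319 in edgeR's test, while the abundant Jund had a log2 fold change of 0.36 (unadjusted p = 0.113). Without c129 the list had 3 lower and 0 higher genes of 22 tested and a median of −0.40. Lower genes over all those tested then went from 770 of 11633 to 399 of 11537. In that fit Egr1 and Jun were at −0.32 and −0.28, no longer past the line. Endothelial markers were lower as well, 6 of 10 tested and 0 higher with a median of −1.26, and their summed level was 295 to 422 CPM in WT and 245 to 308 CPM in cD2KO mice. Summed fibroadipogenic progenitor markers were at 3873, 6484 and 5889 CPM in WT and 2453, 4193 and 5337 CPM in cD2KO mice. Of these 10 markers 2 were lower and 1 higher, with a median of −0.46. Their sum peaked in c129, as did that of the immune markers. The part of dissociation and of the immune, fibroadipogenic progenitor, endothelial and muscle stem cell markers in the chaperone differences was not tested.

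Ratios within a mouse set inducible against constitutive chaperones and do not depend on library scaling. The ratio of Hspa1a to Hspa8, the stress form of HSP70 mRNA over the housekeeping form, was 2.51, 4.27 and 3.89 in the WT mice and 1.33, 1.90 and 2.24 in the cD2KO mice. All cD2KO mice lay below all WT mice, with a difference of −0.96 on the log2 scale (two-sided exact permutation test, p = 0.1, the smallest that 3 mice against 3 allow). The ratio of Hspa1b to Hspa8 was 1.95, 3.25 and 3.30 in WT and 0.926, 1.27 and 1.28 in cD2KO mice. It too separated the groups, by −1.27 on the log2 scale (exact permutation test, p = 0.1, the smallest possible). Both ratios share Hspa8 and a near-identical gene pair, so they are not independent results. Of all genes tested 11.0% had a ratio to Hspa8 that was lower in every cD2KO mouse than in every WT mouse. With each mouse left out the differences stayed between −1.19 and −0.75 for Hspa1a and between −1.52 and −1.12 for Hspa1b. Without c129 the difference for Hspa1a was −0.81, where the level of Hspa1a differed by −0.19 and that of Hspa8 by 0.65. Most of that ratio difference thus lay in Hspa8, whose counts are uncertain. For Hspa1b the difference without c129 was −1.15, where the level of Hspa1b differed by −0.55, less than that of Hspa8.

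For HSP90 the ratio of the inducible Hsp90aa1 to the constitutive Hsp90ab1 was 0.180, 0.165 and 0.190 in WT and 0.134, 0.201 and 0.172 in cD2KO mice. The groups overlapped (log2 difference −0.10, exact permutation test, p = 0.8), and without fl125 the difference was 0.06. The uncertain counts of Hsp90aa1 limit this ratio. Over the whole classes, the mean log2 CPM of the 5 stress-induced members minus that of the 4 constitutive members was −0.05, 0.74 and 0.41 in WT and −0.56, 0.16 and 0.02 in cD2KO mice, which also overlap. A further ratio, of Hspa1b to Hspa1a, was chosen after the values were seen. It was 0.779, 0.762 and 0.849 in WT and 0.696, 0.668 and 0.571 in cD2KO mice, a log2 difference of −0.31. Because of that choice, its exact permutation test (p = 0.1, the smallest possible) cannot support a difference. Of the genes tested 1.69% had a ratio to Hspa1a that separated the groups in that direction. That share is no fair background for a near-identical copy of Hspa1a. The near-identical coding sequences of the pair bear on this ratio.

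**Figure D5:**
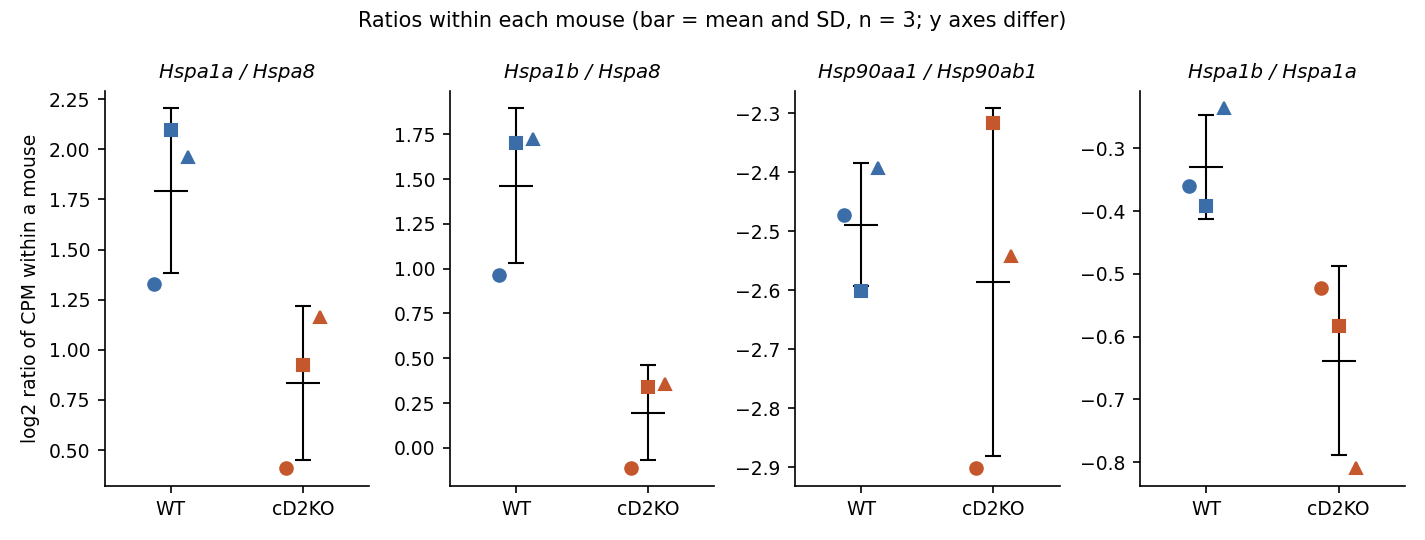
Log2 ratio of CPM within each mouse for 4 gene pairs (y axes differ), with WT in blue, cD2KO in red and bars for the mean and SD (n = 3 mice each). Both inducible HSP70 genes relative to Hspa8 lie lower in every cD2KO mouse than in every WT mouse, while Hsp90aa1 relative to Hsp90ab1 overlaps.

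The wider chaperone network was read from 8 lists of 100 genes that hold none of the members. Of 93 genes tested 10 passed the line as higher in cD2KO and 2 as lower, or 12.9% in all, against 12.0% of all genes tested, and the median log2 fold change was 0.02. In c129 15 of the 93 were highest. With single mice left out 5 to 11 were higher and 0 to 3 lower, the fewest higher without fl128 and the fewest lower without c130.

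Of the 7 tested small heat shock proteins and Serpinh1, holdases that bind unfolding proteins without using ATP and a collagen chaperone, 4 were higher and 0 lower. Hspb7 was at 87.0, 84.6 and 95.7 CPM in WT and 220.4, 224 and 278 CPM in cD2KO mice, which do not overlap (log2 fold change 1.43, adjusted p = 0.0393, edgeR). Hspb6 (1.10), Hspb8 (0.75) and Hspb1 (0.55) were also higher, at unadjusted p of 0.00453, 0.00488 and 0.0255, whereas Cryab, the most abundant of the list, had a log2 fold change of 0.02 (adjusted p = 0.982). Without c129 Hspb7 was at 1.42 with an adjusted p of 0.382, and the list had 3 higher genes, Hspb1 being lost at 0.44. With non-robust estimation 0 genes passed by adjusted p. The mural cell markers, 5 of 11 higher and 0 lower, were called in the same direction. Of the 12 muscle stem cell markers 4 were higher and 1 lower (median log2 fold change 0.22). Of the 11 myofiber markers 1 was higher and 0 lower, and all 11 lay above 0 (median 0.54). Among all genes tested 5.34% were higher and 6.62% lower. The part of these lists in the small heat shock protein result was not tested.

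Among HSP90 paralogs and cochaperones 3 of 19 were higher and 0 lower. Among these were Unc45a (0.56), a myosin chaperone, and Fkbp4 (0.51), a partner of HSP90 in steroid receptors, at unadjusted p of 0.0215 and 0.0235 in edgeR's test. The most abundant of them, Hsp90b1, the HSP90 of the endoplasmic reticulum, had a log2 fold change of −0.48 (unadjusted p = 0.0646). Without c129 Unc45a stayed past the line (0.57) and Fkbp4 did not (0.46), and 1 gene of the list was higher.

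Among 28 tested HSP40 genes other than Dnajb1, Dnajb2 (0.52) and Dnajc7 (0.47) were higher and Dnajc13 (−0.64) was lower, while Dnajc8, the most abundant, was at −0.02. Of 12 exchange factors and partners of HSP70 only Stub1 (0.60), the ubiquitin ligase that hands clients of HSP70 to the proteasome, was higher and 0 were lower, and St13, the most abundant, was at 0.02. Of 11 other HSP70 and HSP110 genes Hspa5, the HSP70 of the endoplasmic reticulum, was lower (447, 787 and 592 CPM in WT and 407, 459 and 435 CPM in cD2KO mice, log2 fold change −0.49, unadjusted p = 0.0471, edgeR), and it lost the call without c129 (−0.24). The 7 tested subunits of the chaperonin TRiC and the 7 mitochondrial proteases and partners had 0 genes called in either direction, with Cct7 at 0.36 and Yme1l1 at −0.01 as the most abundant. Of the heat shock factors and their binding proteins 2 of 6 were tested, with 0 called, and Hsbp1, the more abundant, was at 0.10.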

How the data were processed

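RNA of sorted qMuSCs was sequenced by a commercial digital RNA-seq service, with 1 library per mouse. The authors deposited raw counts of reads per gene, as whole numbers without normalization. Per the submitters' processing notes, reads were aligned to mm10 with STAR 2.6.0a and counted with HTSeq 0.9.1. Annotation, strand setting and removal of PCR duplicates are not given in the sources used here. Groups were taken from the genotype labels. Of the 31053 identifiers 30934 were found in GENCODE M21, which gave symbols, coordinates and exon lengths.

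The study's minimum, a mean above 10 counts after scaling by DESeq2 size factors, left 11633 genes. Library sizes were scaled by TMM, and edgeR 4.0.16 (R 4.3.3) fitted its robust quasi-likelihood model to all 6 mice without a covariate, with Benjamini-Hochberg adjustment over all genes tested. The study's methods name no test for this table, and its line of an unadjusted p under 0.05 was used. Log2 CPM had a prior count of 2. For ratios, two-sided exact permutation tests were run over mice. SDs are between mice and, with 1 library each, hold technical error as well. Alternatives were DESeq2 1.42.0, limma voom (limma 3.58.1), other scalings, filters and prior counts, and each mouse left out. Leaving out c129 and fl125 together, scaling without the members and the ratio of Hspa1b to Hspa1a were chosen after seeing the data. Fits were tested on simulated data.

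The members and lists were chosen with earlier results of these data known. The genes named are all members. In each other chaperone list they are the genes past the line, up to 5 in each direction, and the most abundant gene. Further named are the 5 nearest genes by profile to Hspa1a and Hspa8, and at most 3 of the most abundant genes of the immediate early and marker lists. Promoter windows came from RefSeq, for 6 of 10 members. Cct6a was not analysed here. The values of 1 gene that the rule would name are not reported here.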

Additional observations from a re-analysis of the deposited data

How the results depend on the processing

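No paired analysis was possible because the labels give the mice names and no replicate numbers shared between the groups. Leaving out each mouse in turn moved the log2 fold change over −1.11 to −0.19 for Hspa1a, −1.41 to −0.55 for Hspa1b, −0.26 to 0.15 for Hsp90aa1, −0.86 to −0.13 for Dnajb1, −0.53 to 0.39 for Hsph1, 0.074 to 0.65 for Hspa8, −0.18 to 0.12 for Hsp90ab1, −0.37 to 0.069 for Hspd1, −0.17 to 0.071 for Hspe1 and 0.090 to 0.57 for Hsf1. The count of members lower in cD2KO then ran from 0 to 3 and of those higher from 0 to 1, and other chaperones from 5 to 11 higher and 0 to 3 lower. The log2 ratio of Hsp90aa1 to Hsp90ab1 ran from −0.23 to 0.059. Without c129 and fl125, 3 members were higher and 0 lower, where 974 of all genes were higher and 751 lower. Hspa1b was at −0.41, no longer past the line, Hspa1a was at −0.018 and Dnajb1 at −0.029, Hsp90aa1 (0.21), Hsph1 (0.52), Hsp90ab1 (0.22) and Hspe1 (0.052) changed sign, and Hspa8 (0.65) and Hsf1 (0.73) passed the line. DESeq2's Wald test had 2 members lower, with Hspa1a past the line (−0.77), limma voom 0, with Hspa1b lost (−0.97), and adjusted p 0. Scaling to total counts had 2 members lower, with Dnajb1 past the line (−0.69), and 4 other chaperones lower, and it moved the median of all genes to −0.09. Without a minimum 3 members were lower, with Hspa1a (−0.75) and Dnajb1 (−0.57) past the line, and the adjusted p of Hspa1b and Hspa1a were 0.000808 and 0.0426, in a fit that called 510 of 18040 genes by adjusted p. Over all settings the adjusted p reached 0.715 for Hspa1b and 0.983 for Hspa1a. Other chaperones lower were 1 with DESeq2 size factors and 1 with non-robust estimation. The causes were not tested. At 52 counts in the shallowest library, Hsf1 is the member that depth limits most.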

Other observations

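The 5 genes outside the members whose profile over the 6 mice was nearest to that of Hspa8 were Kif1bp (root mean square difference of centred log2 CPM 0.11), Myh4 (0.13), Col26a1 (0.13), Hoxaas3 (0.14) and Mob3b (0.15). Myh4, the myosin heavy chain of fast glycolytic fibers, was at 127, 245 and 121 CPM in WT and 202, 225 and 174 CPM in cD2KO mice, highest in c129 within WT and in fl126 within cD2KO, as Hspa8 was. Summed myofiber markers were at 3423, 4761 and 2111 CPM in WT and 3671, 4494 and 7185 CPM in cD2KO mice. Within cD2KO that sum was highest in fl128, where Hspa8 was lowest, so the list as a whole did not follow Hspa8. Col26a1, Hoxaas3 and Mob3b were below 11 CPM in every mouse.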
